A study of Bos taurus with 4 samples.

Results

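The scapula muscle of cattle was compared with 3 other skeletal muscles, transcript by transcript, among RNAs that the submitters assembled and classed as intergenic, intronic or antisense to a known gene. For each transcript the level in the scapula muscle was set against the median of the levels in longissimus thoracis, gluteus and intercostal muscle. Transcripts were matched on their full identifier, and a transcript that a muscle's file does not list was taken as 0. The scapula muscle listed 37130 transcripts from 33831 loci, out of 63845 transcripts listed in at least 1 of the 4 muscles. Of its transcripts, 19676 were intergenic, 15342 intronic and 2112 antisense.

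All 4 muscles came from the same kind of animal: Hereford females of 18 months, fattened in 1 feedlot on corn silage, with no treatment named in the labels. Frozen tissue from 3 animals gave RNA that was mixed in equal amounts, so that each muscle is 1 pool and 1 sequenced library. There is therefore no replicate of any muscle, no spread between animals and no test. Differences are given by size, and every interval covers counting error only, since copies made by PCR cannot be told from separate molecules in these files.

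Long noncoding RNAs are transcripts with little or no coding capacity. Those transcribed from the opposite strand of a gene, or from inside its introns, are named here by that gene. The scapula muscles hold and move the shoulder blade, longissimus thoracis runs along the back and extends the spine, the gluteus extends the hip, and the intercostal muscles move the ribs. Skeletal muscle is mostly slow and fast fibres, surrounded by a matrix of collagens made mainly by fibroblasts, with vessels, nerve, fat cells and resident stem cells between them. In pooled bulk tissue, fewer cells of a type and less RNA per cell cannot be told apart. The counting is not stated to use strand, so a value given for an antisense transcript may contain mRNA reads of its gene, and the 2 sources cannot be told apart. Which muscle of the shoulder was sampled is not given in the labels.

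Levels are FPKM, fragments scaled by transcript length and library size. Dividing out the FPKM formula gave whole reads, with a library total of 1511933 in the scapula muscle, between 1107493 in gluteus and 2132255 in longissimus thoracis, and 1318644 in the intercostal library. The read numbers are the smallest that fit the values. The median scapula transcript had 11 reads. The longissimus thoracis library stood apart from the other 3. Among the 1388 transcripts with at least 200 reads in their highest library, Pearson's r of log2(FPKM + 1) with the scapula muscle was 0.50 for longissimus thoracis, 0.80 for gluteus and 0.89 for intercostal muscle. The list of structured housekeeping RNAs summed to 1278 reads scaled by library size there, against 15567 in the scapula muscle, 10807 in intercostal muscle and 23168 in gluteus. The antisense transcript of JUN, an immediate early transcription factor, stood at 14.8 FPKM there, against 1135 in the scapula muscle, 786 in intercostal muscle and 2477 in gluteus. Many counts below are given with and without longissimus thoracis.

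A transcript was called higher or lower where log2(FPKM + 1) differed by at least 1, a 2-fold difference, and 1 library reached 1 FPKM. By that rule 27566 transcripts (43.2% of those compared) were higher in the scapula muscle than the median of the other 3 and 7187 (11.3%) were lower. Set against each other muscle in turn, 16519 (25.9%) exceeded all 3 and 1109 (1.74%) lay below all 3. This imbalance is built largely from presence: a transcript that 2 of the other muscles do not list has a median of 0 and cannot be lower. The scapula muscle also listed the most transcripts, from the second largest library. Of its transcripts, 12206 were listed there alone, with a median of 10 reads and no more than 69. These comprised 6512 intergenic, 5544 intronic and 150 antisense transcripts and held 8.38% of its reads. Longissimus thoracis listed 13037 transcripts alone, intercostal muscle 5534 and gluteus 3589. Conversely, 636 transcripts were listed in the other 3 muscles and not in the scapula muscle, against 2955 missing in that way from longissimus thoracis, 2527 from gluteus and 1556 from intercostal muscle.

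Where all 4 muscles listed a transcript, the counts in both directions were close. Of 7188 such transcripts, 1454 (20.2%) were higher and 1390 (19.3%) were lower, with a median log2 difference of -0.01. Against each of the other 3 muscles separately, 359 (4.99%) were higher and 482 (6.71%) were lower. Without longissimus thoracis, 1227 were higher and 1442 lower. Leaving out a muscle puts the mean of the remaining 2 in place of the median. It raised the count called lower whichever muscle was left out. Among the 22797 transcripts with at least 20 reads, 3693 (16.2%) were higher than in each other muscle and 864 (3.79%) lower. Among the 1388 transcripts with at least 200 reads, 100 (7.2%) were higher and 168 (12.1%) lower than the median. Of 117 intronic transcripts of that depth, 0 (0%) were higher than in each other muscle and 2 (1.71%) lower. Over all classes, 13 (0.937%) were higher than in each and 37 (2.67%) lower, and without longissimus thoracis 20 and 49. The share called higher thus stood at 45.9% in transcripts with 5 to 19 reads, 45.2% from 20 to under 50 reads, 28.5% in those with at least 50 but under 200 reads and 7.2% in the most deeply counted. The share called lower over the same steps was 8.41%, 18.8%, 22.2% and 12.1%.

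**Figure D1:**
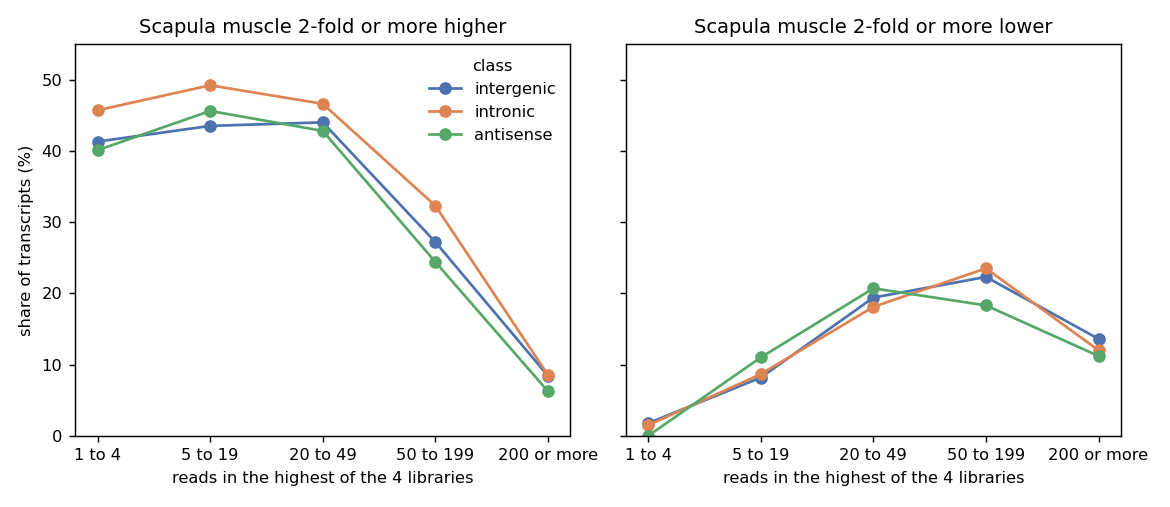
Percentage of transcripts 2-fold higher (left panel) or lower (right panel) in the scapula muscle than the median of the other 3 muscles, by number of reads in the highest library and by class (intergenic, intronic, antisense). The share called higher is 43% at 1 to 4 reads and 7.2% at 200 or more, while the share called lower goes from 1.63% to 12.1%.

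By class, intronic transcripts took the largest share of calls in favour of the scapula muscle. Of 26452 intronic transcripts, 12360 (46.7%) were higher and 3038 (11.5%) lower. Intergenic transcripts gave 14515 higher (41.6%) and 3796 lower (10.9%) of 34877. Antisense transcripts gave 691 higher (27.5%) and 353 lower (14%) of 2516. Intronic transcripts held 20.3% of the scapula muscle's reads, against 17.9% in longissimus thoracis, 13.8% in gluteus and 17.5% in intercostal muscle. Antisense transcripts held 50.7%, against 54.1%, 61.9% and 55.9% in the same order. Among transcripts listed in every muscle, the median log2 difference was 0.16 for the 1818 intronic and -0.19 for the 1420 antisense ones.

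**Figure D2:**
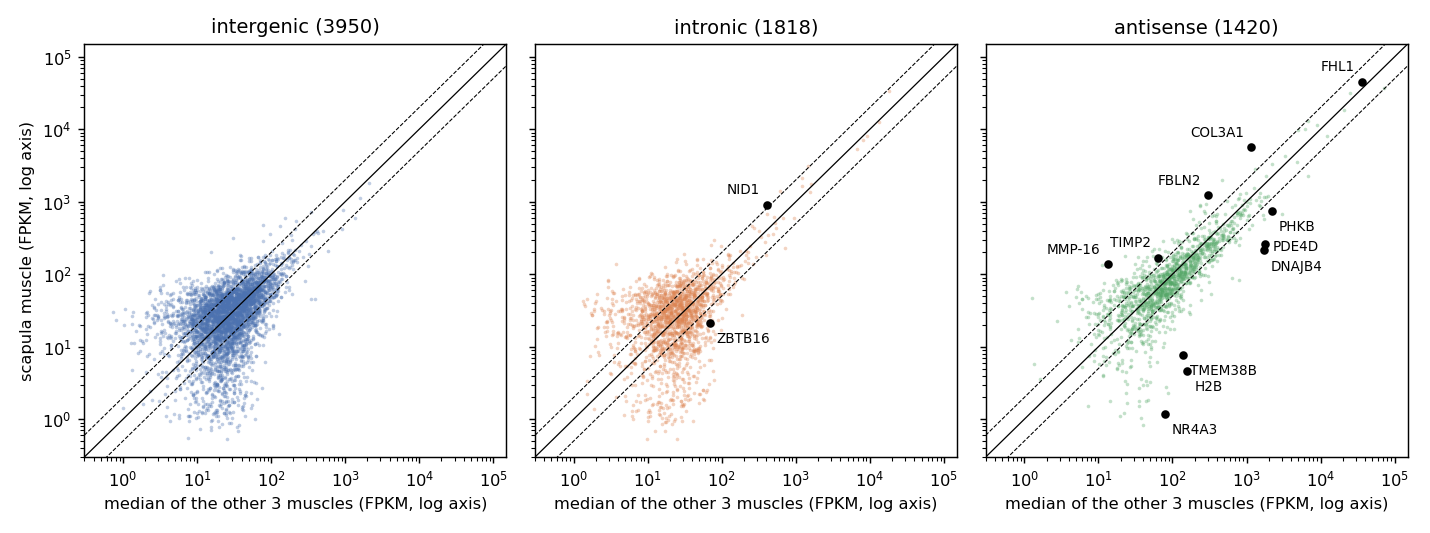
FPKM in the scapula muscle (vertical, log axis) against the median FPKM of the other 3 muscles (horizontal, log axis) for transcripts listed in all 4 muscles, in a panel each for 3950 intergenic, 1818 intronic and 1420 antisense transcripts. The solid line marks equal levels and the dashed lines a 2-fold difference, and most points at high levels lie between the dashed lines.

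Antisense transcripts of collagen genes stood highest in the scapula muscle. Collagen chains wind into the triple helices that give the matrix of muscle its strength. At COL3A1, the chain of fibrillar type III collagen, the level was 5658 FPKM in the scapula muscle, 1156 in longissimus thoracis, 954 in gluteus and 2596 in intercostal muscle. At COL5A2, a chain of type V collagen, it was 742 in the scapula muscle against 174, 152 and 348 in the same order. At COL12A1, of the fibril-associated type XII collagen, it was 172 against 34.1, 23.0 and 81.2. In all 3 the intercostal muscle came next and the gluteus was lowest. The ratio of the scapula muscle to the intercostal muscle was 2.18 for COL3A1 (95% counting interval 2.11 to 2.25), 2.13 for COL5A2 (1.97 to 2.31) and 2.12 for COL12A1 (1.81 to 2.48). COL4A1, a chain of the type IV collagen of basement membranes, stood at 131.5 FPKM in the scapula muscle, 11.1 in longissimus thoracis, 48.2 in gluteus and 94.5 in intercostal muscle. Its ratio to the intercostal muscle was 1.39 (0.932 to 2.1), an interval that includes equal levels.

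In the list of collagen chains, 17 of 40 genes had a transcript. All 4 of its antisense transcripts with at least 20 reads were higher than the median of the other 3 muscles, where 21.5% of all antisense transcripts of that depth were higher and 15.9% lower. Over all classes, 14 of 28 such transcripts were higher and 7 lower, or 13 and 5 without longissimus thoracis, beside 39.5% and 19.1% of all transcripts of that depth (33.5% and 26.8% without longissimus thoracis). The summed level of the list, in reads scaled by library size (RPM), was 10478 RPM in the scapula muscle, 2449 in longissimus thoracis, 1858 in gluteus and 4854 in intercostal muscle. Without COL3A1 the sum was 2025 in the scapula muscle against 721, 432.5 and 976. Introns did not all follow the antisense side: 12 intronic transcripts of COL4A1, summed, were lower in the scapula muscle than in each other muscle, by a log2 difference of -1.27 from the lowest of them.

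Single transcripts of other matrix genes, chosen after their values were seen, also stood high in the scapula muscle. MMP-16 encodes a membrane-bound protease of matrix proteins, and TIMP2 encodes an inhibitor of such proteases. At MMP-16 the level was 137 FPKM in the scapula muscle, 11.2 in longissimus thoracis, 15.95 in gluteus and 13.4 in intercostal muscle. The ratio to the next highest muscle was 8.61 (5.85 to 13.2), so that 1 library stood far above 3 that were close together. At TIMP2 the level was 169.6 in the scapula muscle against 10.8, 63.9 and 72.3, a ratio of 2.34 (2.03 to 2.71) to the intercostal muscle. FBLN2, the matrix glycoprotein fibulin 2, stood at 1236 in the scapula muscle, 9.87 in longissimus thoracis, 306.5 in gluteus and 804 in intercostal muscle. Its ratio to the intercostal muscle was 1.54 (1.36 to 1.74), above equal levels but short of the 2-fold rule. LTBP1, which holds latent TGF-beta in the matrix, stood at 76.0 against 17.6, 8.22 and 47.45, a ratio of 1.60 (1.14 to 2.27). An intronic transcript of NID1, the basement membrane linker nidogen 1, stood at 913 against 98.0, 411 and 732, a ratio of 1.25 (1.09 to 1.43). The scapula muscle was highest in all 5, with the intercostal muscle next in each but MMP-16. TIMP3 gave 39 antisense transcripts whose sum was 1689 RPM in the scapula muscle, 1611 in intercostal muscle, 1085 in longissimus thoracis and 1050 in gluteus, so that scapula and intercostal muscle were close.

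The list of fibroblast and matrix markers as a whole was mixed. Of its 43 genes, 13 had a transcript, and DPT, FN1, LOX, LUM, POSTN, SPARC and TNC had none. Of its 32 transcripts with at least 20 reads, 10 were higher and 7 lower, or 11 and 8 without longissimus thoracis. All transcripts of that depth gave 39.5% and 19.1%, and 33.5% and 26.8% without it. The sum of the list was 834 RPM in the scapula muscle, and between 352 and 639.7 elsewhere. Without FBLN2 it was 364 in the scapula muscle, below 636 in longissimus thoracis and above 236 in gluteus and 241 in intercostal muscle. VCAN, the matrix proteoglycan versican, summed to 35.7 in the scapula muscle, the lowest of the 4, against 146, 88.5 and 50.8. The part of fibroblast number in the collagen and FBLN2 values was not tested.

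**Figure D3:**
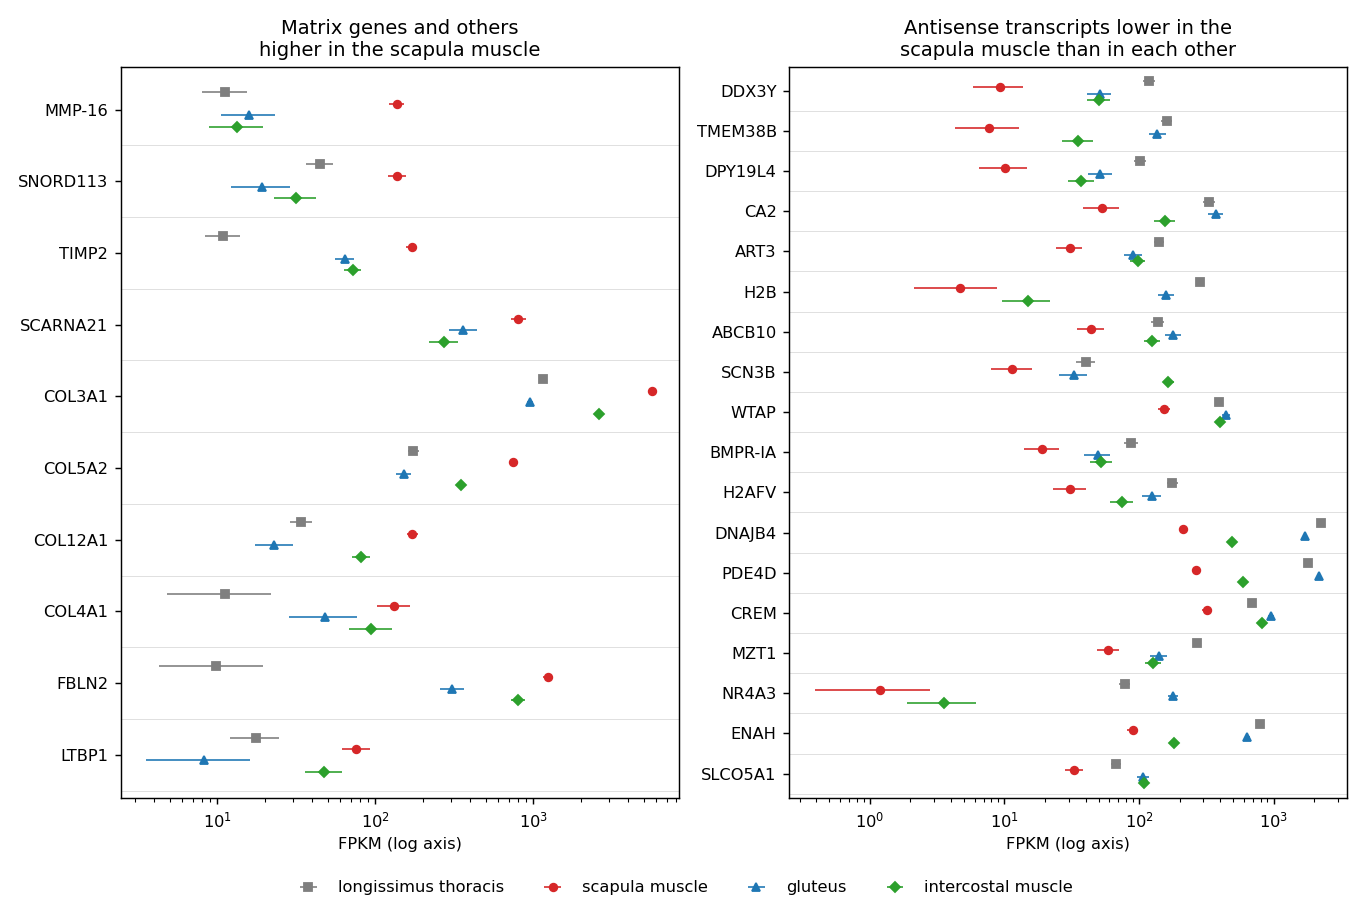
FPKM (log axis) of antisense transcripts in the 4 muscles with 95% Poisson intervals of the counts: on the left 10 that stood high in the scapula muscle, on the right 18 that were lower there than in each other muscle, all with at least 200 reads in their highest library. COL3A1 in the scapula muscle stands at 5658 FPKM, above 3 muscles between 954 and 2596, while PDE4D stands at 264.5 there and between 596 and 2186 elsewhere.

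Of 784 antisense transcripts with at least 200 reads, 7 (0.893%) were higher in the scapula muscle than in every other muscle, and 18 (2.3%) were lower. Without longissimus thoracis the counts were 7 and 24. This set of deeply counted transcripts was chosen after values were seen. Besides COL3A1, COL5A2, COL12A1, MMP-16 and TIMP2, the 7 held SNORD113, a small nucleolar RNA family of an imprinted region, and SCARNA21, a Cajal body RNA. SNORD113 stood at 138 FPKM in the scapula muscle, 44.6 in longissimus thoracis, 19.2 in gluteus and 31.5 in intercostal muscle. It belongs to a multicopy family, so its reads are uncertain in their origin. SCARNA21 stood at 805 in the scapula muscle, 270.4 in intercostal muscle and 360.5 in gluteus, and was not listed in longissimus thoracis.

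Among the 18 lower transcripts were genes of cyclic AMP signalling. PDE4D encodes a phosphodiesterase that breaks down cyclic AMP, and CREM a transcription factor that answers to it. At PDE4D the level was 264.5 FPKM in the scapula muscle, 1791 in longissimus thoracis, 2186 in gluteus and 596 in intercostal muscle. At CREM it was 319 in the scapula muscle against 693, 953 and 823. The lowest of the other muscles exceeded the scapula muscle by a ratio of 2.25 (2.14 to 2.38) for PDE4D and 2.17 (1.98 to 2.37) for CREM. For PDE4D the scapula and intercostal muscles were both far below the other 2, and for CREM the scapula muscle alone was low.

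The same set held genes of the cytoskeleton and of protein folding. DNAJB4, a partner of the heat shock protein HSP70, stood at 212.5 FPKM in the scapula muscle, 2255 in longissimus thoracis, 1699 in gluteus and 487 in intercostal muscle. ENAH, a regulator of actin filaments, stood at 89.7 against 794, 639 and 183. MZT1, a small protein of the gamma-tubulin complex, stood at 59.05 against 270.2, 139.5 and 127. The lowest of the other muscles exceeded the scapula muscle by 2.29 (2.13 to 2.47) for DNAJB4 and 2.04 (1.82 to 2.28) for ENAH. DNAJB4 and ENAH, like PDE4D, were low in the scapula and intercostal muscles, but their highest level was in longissimus thoracis and that of PDE4D in gluteus.

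Membrane and enzyme genes made up another part of it. TMEM38B, a cation channel of the sarcoplasmic reticulum, stood at 7.71 FPKM in the scapula muscle, 161 in longissimus thoracis, 137 in gluteus and 35.35 in intercostal muscle. CA2, carbonic anhydrase 2, stood at 53.0 against 331, 373 and 155. WTAP, a subunit of the complex that methylates adenosine in RNA, stood at 154 against 389.6, 444 and 402. The ratios of the lowest other muscle to the scapula muscle were 4.59 (2.57 to 8.70), 2.93 (2.06 to 4.23) and 2.52 (2.25 to 2.84). WTAP was nearly level in the other 3 muscles, whereas TMEM38B and CA2 were not. BMPR-IA, a receptor of bone morphogenetic proteins, stood at 19.1 in the scapula muscle, 87.5 in longissimus thoracis, 49.2 in gluteus and 52.5 in intercostal muscle. SCN3B, a sodium channel subunit, stood at 11.45 against 40.1, 32.7 and 165. NR4A3, a nuclear receptor of the immediate early class, stood at 1.20 against 78.3, 180.2 and 3.57. For NR4A3 the intercostal muscle was also near the bottom, and the ratio of 2.98 between them (0.997 to 10.7) includes equal levels. The other 7 were ABCB10, a mitochondrial transporter, ART3, DDX3Y, DPY19L4, the histone genes H2AFV and H2B, and SLCO5A1, a solute carrier.

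Antisense transcripts of 4 genes of glycogen and glucose use are given next. PHKB, a subunit of the kinase that switches on glycogen breakdown, stood at 756 FPKM in the scapula muscle, 3298 in longissimus thoracis, 2193 in gluteus and 644 in intercostal muscle. PPP1R3A, which brings a phosphatase to glycogen, stood at 289 against 617, 421 and 266. HK2, hexokinase 2, which phosphorylates glucose on entry, stood at 217.5 against 458, 693 and 307. GYG1, glycogenin, the primer of glycogen, stood at 1155 against 2064, 1659 and 1699.7. In PHKB and PPP1R3A the intercostal muscle was as low as the scapula muscle, and in HK2 and GYG1 the scapula muscle alone was lowest. Of the list's 5 antisense transcripts with at least 20 reads, 0 were higher and 2 lower, beside 21.5% and 15.9% of all antisense transcripts of that depth, a number too small to set apart from those shares. Its 31 transcripts of that depth in all classes had the other balance, with 18 higher and 5 lower and a median log2 difference of 2.09. Over all transcripts of that depth, 39.5% were higher and 19.1% lower. Without longissimus thoracis the list gave 18 and 6, beside 33.5% and 26.8%. PFKFB1 alone supplied 14 of the 31. Summed, the list stood at 5281 RPM in the scapula muscle, 5216 in intercostal muscle, 13436 in longissimus thoracis and 9716 in gluteus. The count over many weakly read introns and the sum over a few deep transcripts therefore differ in direction.

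Transcripts of 1 gene and class were summed to see whether they moved together. There were 1033 groups with at least 3 transcripts of at least 20 reads, 1018 of them intronic and 15 antisense. Of the 1033, 315 (30.5%) were higher in the scapula muscle than the median of the other 3 and 87 (8.42%) lower. Against each muscle, 76 (7.36%) were higher and 20 (1.94%) lower. The median log2 difference was 0.50. Transcription factor genes with long introns were among the largest groups. ZBTB20 had 157 intronic transcripts, summing to 1536 RPM in the scapula muscle, 870.4 in longissimus thoracis, 488 in gluteus and 685 in intercostal muscle. NFIA had 146, summing to 1523 against 1122, 268 and 985. EBF1, a regulator of fat cell and B cell development, had 118, summing to 1171 against 890.1, 439 and 673. The scapula muscle was highest and gluteus lowest in all 3. CMSS1 had the same highest and lowest muscle, its 194 transcripts summing to 2523 against 2244, 1428 and 1609. TCF12, another transcription factor gene, did not, its 116 summing to 745 in the scapula muscle, below 838 in longissimus thoracis. In ZBTB20, 93 transcripts were higher and 14 lower, in NFIA 90 and 13, and in EBF1 68 and 17. Of all intronic transcripts, 46.7% were higher and 11.5% lower.

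Several other large genes did not follow the order of ZBTB20, NFIA and EBF1 either. PRKG1, a kinase driven by cyclic GMP, had 213 intronic transcripts, summing to 782 RPM in the scapula muscle, 1299 in longissimus thoracis, 469 in gluteus and 477 in intercostal muscle. By transcript, 90 of them were higher and 30 lower, beside 46.7% and 11.5% of all intronic transcripts. NR3C2, the mineralocorticoid receptor, had 100, summing to 770 in the scapula muscle and 769 in longissimus thoracis, against 194 and 333. IMMP2L, a peptidase of the inner mitochondrial membrane, had 159, summing to 498 against 894, 189 and 519. In PRKG1 and IMMP2L longissimus thoracis was highest, and in NR3C2 it was level with the scapula muscle.

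**Figure D4:**
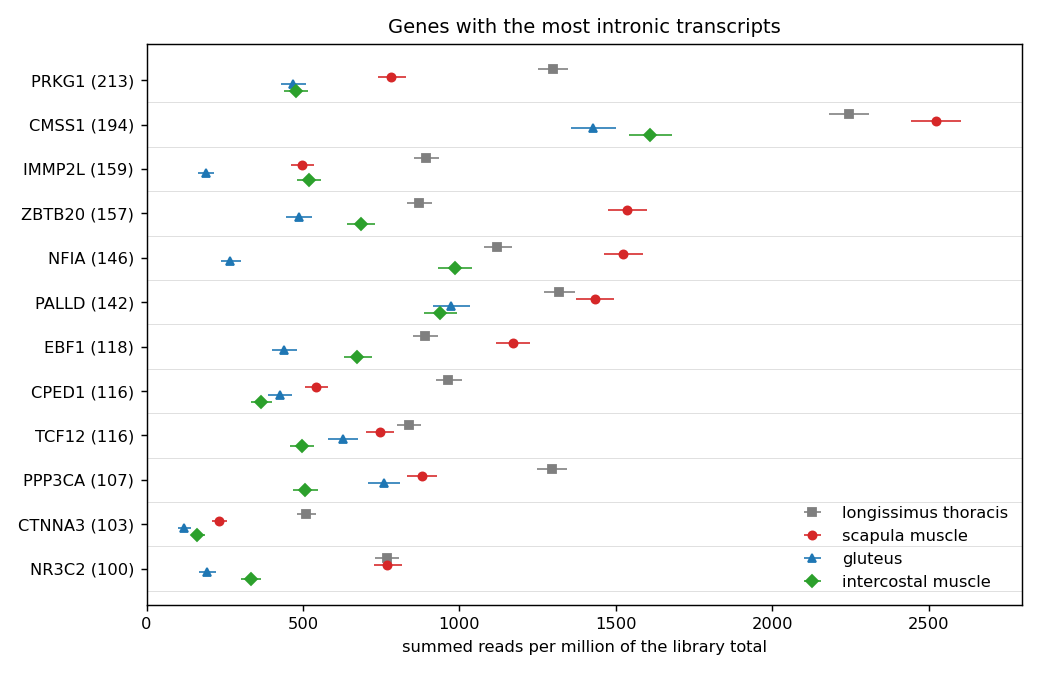
Summed reads scaled by library size (RPM) of the intronic transcripts of the 12 genes with the most of them (their number in brackets) in the 4 muscles, with 95% Poisson intervals. ZBTB20, NFIA, EBF1, CMSS1 and PALLD are highest in the scapula muscle, and PRKG1, IMMP2L and TCF12 among others in longissimus thoracis.

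The largest differences among these sums, by rule, were presence against absence. At PDE5A, the phosphodiesterase of cyclic GMP, introns summed to 68.1 RPM in the scapula muscle, 35.6 in intercostal muscle and 0.903 in gluteus, with none listed in longissimus thoracis. At GULP1, an adaptor for the engulfing of cells, they summed to 45.6, against 20.8 in gluteus and 0.758 in intercostal muscle, with none in longissimus thoracis. On the low side, introns of CAMK2D, the delta chain of a calcium-driven kinase, had no transcript listed in the scapula muscle or gluteus, and summed to 102 in longissimus thoracis and 13.7 in intercostal muscle. HNRNPLL, an RNA-binding regulator of splicing, had none in the scapula muscle and sums of 56.3, 31.6 and 9.10 elsewhere. None of the 4 had a transcript listed in all the muscles.

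Among the 76 groups higher than in each muscle, chosen for naming after their values were seen, was ACVR2A, a receptor of activins and myostatin. It summed to 136 RPM in the scapula muscle, 37.0 in longissimus thoracis, 64.1 in gluteus and 37.2 in intercostal muscle. RALGPS2, among the 20 lower than in each, gave the opposite picture, at 9.26 in the scapula muscle against 119, 83.1 and 44.0.

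Ligands, receptors and inhibitors of TGF-beta signalling, which restrains muscle growth through myostatin and promotes matrix, were mostly present as weakly read introns. The list of 53 genes, which also holds genes of the BMP pathway, had transcripts from 32. It had none for MSTN, which encodes myostatin, or for INHBA, TGFB3, BMP2, BMP4 and GDF11. Of its 49 transcripts with at least 20 reads, 27 were higher in the scapula muscle and 6 lower, with a median log2 difference of 1.10. Without longissimus thoracis these were 19 and 13 with a median of 0.03. All transcripts of that depth gave 39.5% higher and 19.1% lower, and 33.5% and 26.8% without that library. The list was not counted without gluteus or intercostal muscle, so the change cannot be assigned to longissimus thoracis alone. FST encodes follistatin, which binds and blocks myostatin and activins. Its antisense transcript stood at 79.2 FPKM in the scapula muscle, 21.7 in longissimus thoracis, 18.2 in gluteus and 16.8 in intercostal muscle. The ratio to the next muscle was 3.65 (2.58 to 5.25), with the other 3 close together. The ligand TGFB2 stood at 119.5 against 137, 70.9 and 90.5, inside the range of the others. ACVR1B, a receptor of activins, stood at 57.3 in the scapula muscle, 9.63 in intercostal muscle and 49.0 in gluteus, with none listed in longissimus thoracis. TGFBR3, a coreceptor, had 48 transcripts that summed to 157 RPM in the scapula muscle, 253 in longissimus thoracis, 82.2 in gluteus and 140.3 in intercostal muscle. Of the inhibitors, an intron of SMAD6 was listed in the scapula muscle alone, at 77.3.

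Growth signalling through insulin and IGF drives protein synthesis in muscle. Of 92 transcripts with at least 20 reads, 45 were higher and 13 lower, or 35 and 21 without longissimus thoracis. All transcripts of that depth gave 39.5% and 19.1%, and 33.5% and 26.8% without it. The antisense transcript of the ligand IGF-I stood at 34.4 FPKM in the scapula muscle, 12.9 in longissimus thoracis, 7.82 in gluteus and 24.1 in intercostal muscle. An intronic one stood at 87.0 in the scapula muscle, against 11.4 in intercostal muscle, and was not listed elsewhere. The growth hormone receptor GHR had an intronic transcript listed in the scapula muscle alone, at 79.2, but its 40 transcripts summed to 200.4 RPM there, between 88.5 in gluteus and 272 in longissimus thoracis. For FOXO1, a transcription factor of atrophy and fasting, 1 such intronic transcript stood at 80.6, and its 19 transcripts summed to 109 in the scapula muscle, 134 in longissimus thoracis, 12.6 in gluteus and 31.1 in intercostal muscle. PIK3R1, a regulatory subunit of the kinase downstream of the insulin receptor, stood at 307 against 189, 198 and 258. IGF-I and PIK3R1 were highest in the scapula muscle with the intercostal muscle next. Fibroblast growth factor genes gave 5 higher and 4 lower of 18, or 5 and 8 without longissimus thoracis.

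Fibre type could be checked only in part, because mRNA values are not analysed here. Of 15 slow fibre genes 8 had a transcript, and the defining genes MYL2, MYL3, TNNC1, TNNI1, TNNT1 and ATP2A2 had none. Of 21 fast fibre genes 5 had one, and MYH2, ACTN3, ATP2A1, TNNI2 and TNNT3 had none. Slow fibre genes gave 15 higher and 2 lower of 26 transcripts with at least 20 reads, but 9 and 8 without longissimus thoracis, with medians of 1.28 and 0. All transcripts of that depth gave 39.5% and 19.1%, and 33.5% and 26.8% without it. SOX6 alone supplied 15 of the 26 slow fibre transcripts, and 33 of the list's 57 at any depth, so the counts rest largely on 1 gene. The slow fibre sum was 653.5 RPM in the scapula muscle, 573 in intercostal muscle, 290.3 in longissimus thoracis and 221 in gluteus. Without the top MYLK3 transcript it was 388 in the scapula muscle, below 505 in intercostal muscle and above 238 in longissimus thoracis and 61.4 in gluteus. TPM3, the slow tropomyosin, had an intronic transcript at 36.9 FPKM in the scapula muscle, 15.0 in longissimus thoracis, 6.34 in gluteus and 60.8 in intercostal muscle. ESRRG and SOX6, transcription factors of slow and fast programmes, each had an intronic transcript listed in the scapula muscle alone, at 71.0 and 55.3. All transcripts of ESRRG summed to 41.7 RPM in the scapula muscle, below 87.2 in intercostal muscle, and those of SOX6 to 160.1, above 140.2 in longissimus thoracis. For fast fibres, MYH1, the chain of fast 2X myosin, stood at 105 in the scapula muscle against 68.8, 77.2 and 40.6. In these transcripts the scapula muscle thus lay inside the range of the others for TPM3 and above it for MYH1. All 3 transcripts of MYH1 summed to 122 RPM in the scapula muscle, close to 114 in gluteus. Fast fibre genes gave 2 higher and 0 lower of 8, or 0 and 1 without longissimus thoracis.

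Myogenic factors and stem cell genes gave 27 higher and 14 lower of 74 transcripts, close to the shares of all transcripts of that depth. Of 30 genes 17 had a transcript, while PAX7, PAX3, MYF5, MYOD1 and MYOG had none. MYF6, the myogenic factor of mature fibres, stood at 379.7 FPKM in the scapula muscle, 604 in longissimus thoracis, 488 in gluteus and 652 in intercostal muscle. EYA4 stood at 297 against 717, 813 and 234. MYLK3, a myosin light chain kinase, stood at 222 against 43.6, 134 and 56.6, and MYLK2, the skeletal muscle kinase, had an intronic transcript at 139 against 6.04, 504 and 264. MYF6 was lowest in the scapula muscle, MYLK3 was highest there, and EYA4 and MYLK2 lay between.

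The remaining lists of fibre structure and metabolism are given by their counts among transcripts with at least 20 reads, with the counts without longissimus thoracis after them. Genes of the sarcomere and its Z-disc gave 60 higher and 34 lower of 159, then 54 and 41. The dystrophin complex, which ties the fibre to the matrix, gave 35 and 14 of 85, then 36 and 20. Calcium handling genes gave 39 and 23 of 121, then 37 and 26. These 3 lists lay near the shares of all transcripts of that depth, which were 39.5% higher and 19.1% lower. Without longissimus thoracis those shares were 33.5% and 26.8%. Fatty acid oxidation gave 6 and 6 of 24, then 5 and 9, and oxidative phosphorylation 2 and 2 of 14, then 1 and 6. Atrophy and autophagy genes gave 23 and 9 of 70, then 26 and 13, and immediate early and stress genes 24 and 10 of 60, then 26 and 13. Basement membrane genes gave 5 and 4 of 14, then 4 and 5, and ribosomal protein genes 0 and 2 of 8, then 2 and 2. Known long noncoding RNAs had 2 transcripts, of which 1 was higher and 0 lower at any depth.

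**Figure D5:**
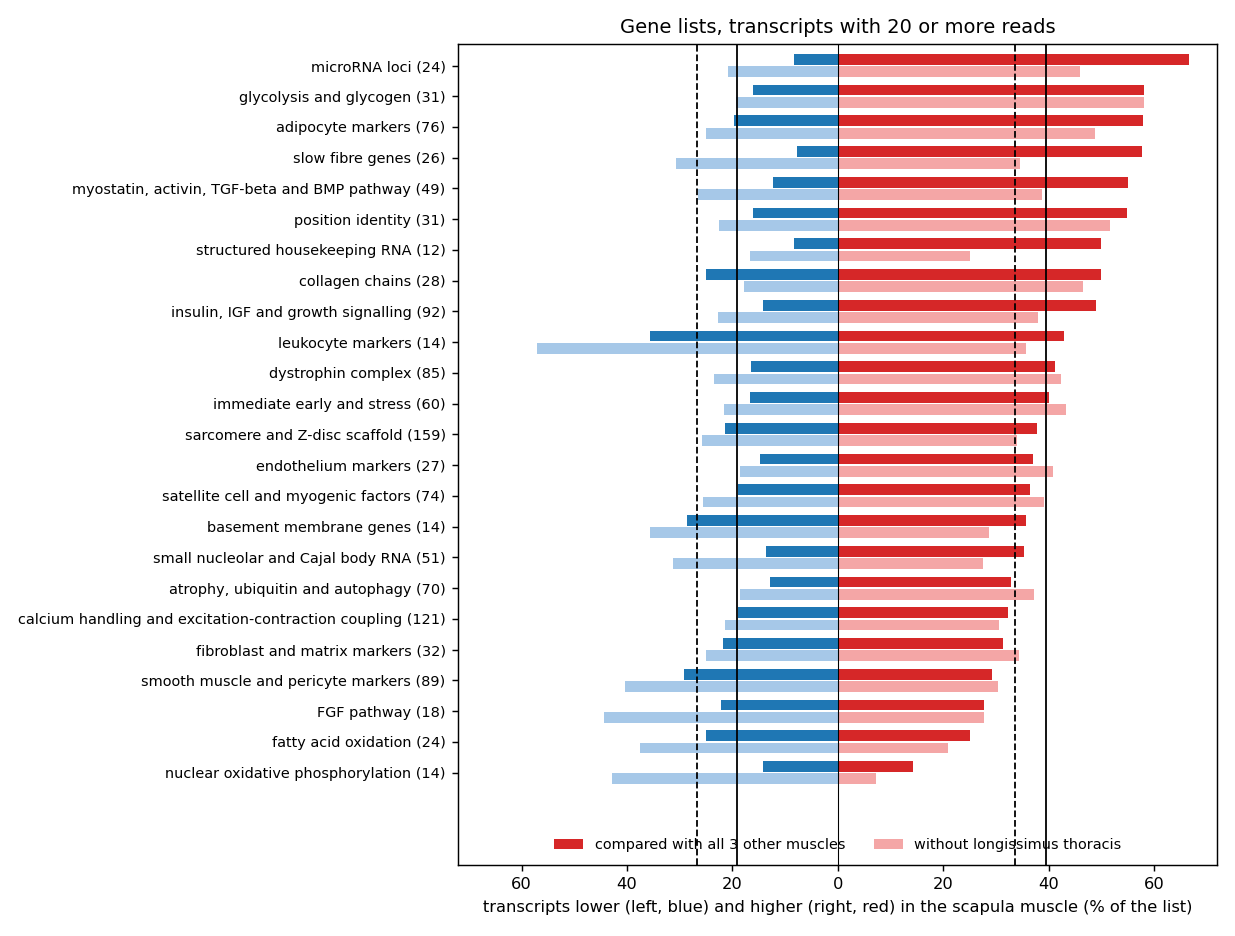
Percentage of transcripts with at least 20 reads that were 2-fold higher (red, right) or lower (blue, left) in the scapula muscle than the median of the other muscles, for each gene list with 10 or more such transcripts; dark bars use all 3 other muscles and pale bars leave out longissimus thoracis. Vertical lines mark all transcripts of that depth (solid, 39.5% and 19.1%; dashed, without longissimus thoracis). The slow fibre list goes from 15 higher and 2 lower to 9 and 8 when longissimus thoracis is left out.

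Genes of body position keep a record of where along the trunk and limb a muscle was formed. Of 73 such genes 17 had a transcript, and most HOX genes had none. Of 31 transcripts with at least 20 reads, 17 were higher in the scapula muscle and 5 lower, or 16 and 7 without longissimus thoracis, beside 39.5% and 19.1% of all transcripts of that depth (33.5% and 26.8%). TBX15, a factor of limb and shoulder girdle development, stood at 446.5 FPKM in the scapula muscle, 173 in longissimus thoracis, 579 in gluteus and 406 in intercostal muscle. HOXA3 had an intronic transcript at 189.8 against 6.86, 238 and 30.5. HOXC10, a gene of the hindquarter, was not listed in the scapula or intercostal muscle and stood at 82.5 in gluteus and 48.7 in longissimus thoracis. HOXD4 stood at 41.1 in the scapula muscle and 7.83 in gluteus and was not listed in the other 2. One of the 4 transcripts of SIM1 was listed in the scapula muscle alone, at 59.9, but the 4 together summed to 17.2 RPM there, 22.0 in longissimus thoracis and 24.3 in intercostal muscle. An intron of MEIS1, a HOX partner, stood at 52.4 in the scapula muscle and 9.87 in gluteus and was not listed elsewhere. TBX15 and HOXA3 were thus lower than in gluteus, while HOXC10 separated gluteus and longissimus thoracis from the other pair.

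Vessel genes did not share 1 order. CD34, a surface protein of endothelium and progenitors, stood at 438.6 FPKM in the scapula muscle, 182 in intercostal muscle and 222.9 in gluteus, and was not listed in longissimus thoracis. CDH5, the cadherin of endothelial junctions, stood at 88.3 in the scapula muscle against 9.75, 92.85 and 88.5, level with gluteus and intercostal muscle. The endothelial list had transcripts from 11 of 27 genes, with none for PECAM1, VWF, KDR or CLDN5. It gave 10 higher (37.0%) and 4 lower (14.8%) of 27 transcripts with at least 20 reads, or 11 and 5 without longissimus thoracis. All transcripts of that depth gave 39.5% and 19.1%, and 33.5% and 26.8% without it. The endothelial list summed to 714 RPM in the scapula muscle and 351 to 475 elsewhere. Without the top CD34 transcript it was 504 in the scapula muscle, close to 475 in longissimus thoracis and above 245 in gluteus and 346 in intercostal muscle. LDB2, with 32 of the list's 68 transcripts, summed to 193 in the scapula muscle, above 69.9, 0 and 37.2 in the same order. FLT1 did not share that order, at 50.9 against 210, 29.8 and 67.5. Smooth muscle and pericyte genes gave 26 higher and 26 lower of 89, or 27 and 36, and summed to 6491 in the scapula muscle, below 6878 to 8747 elsewhere. Without the top SYNPO2 transcript their sum was 2682 in the scapula muscle, above 2416 in gluteus and below 3668 in longissimus thoracis and 4637 in intercostal muscle.

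Fat cell genes gave 44 higher (57.9%) and 15 lower (19.7%) of 76 transcripts with at least 20 reads, or 37 and 19 without longissimus thoracis. All transcripts of that depth gave 39.5% and 19.1%, and 33.5% and 26.8% without it. Of the fat cell list's 164 transcripts of any depth, 118 were from EBF1. ADIPOQ, LEP, PLIN1, FABP4, FASN and SCD had no transcript. Leukocyte genes gave 6 higher and 5 lower of 14, or 5 and 8, and summed to 149 RPM in the scapula muscle, the lowest of the 4 (162 to 239 elsewhere). Nerve and Schwann cell genes gave 2 higher and 1 lower of 5 and summed to 108.5, within 105 to 138 elsewhere. The part of these cells in the differences between muscles was not tested.

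Transcripts at the loci of microRNAs, the short RNAs that silence mRNAs, were counted in the same way. Of 24 with at least 20 reads, 16 were higher and 2 lower, or 11 and 5 without longissimus thoracis. Of these, 22 were antisense, with 14 higher and 2 lower, beside 21.5% and 15.9% of all antisense transcripts of that depth. A transcript at the locus of bta-mir-99a stood at 571 FPKM in the scapula muscle, 188 in longissimus thoracis, 136 in gluteus and 527 in intercostal muscle. At let-7c it stood at 284 against 124, 58.6 and 159.5, and at mir-125b-1 at 105 against 38.9, 2.02 and 39.1. At mir-21, a microRNA common in fibroblasts, it stood at 151 against 104, 15.6 and 43.4. The scapula muscle was highest and gluteus lowest in these 4. The loci of microRNAs made in muscle fibres did not share that order. At mir-133a-2 the level was 722 in the scapula muscle against 926, 770.3 and 566, and at mir-133b it was 172 against 116, 218 and 273. At mir-206 it was 33.6 against 15.9, 59.7 and 40.35. These stood inside the range of the other muscles. At bta-mir-331, one of the transcripts listed in every muscle with the largest difference, the level was 62.3 against 20.3, 5.10 and 1.43, a ratio of 3.07 (1.84 to 5.26) to longissimus thoracis.

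Small nucleolar RNAs, which guide the modification of ribosomal RNA, changed their balance when longissimus thoracis was left out. Of 51 transcripts with at least 20 reads, all antisense, 18 were higher and 7 lower, but 14 and 16 without it. All antisense transcripts of that depth gave 21.5% and 15.9%, and 14.7% and 19.5% without it. The sum of the small nucleolar RNAs was 15162 RPM in the scapula muscle, 13328 in intercostal muscle, 19840.5 in longissimus thoracis and 27169 in gluteus. The transcripts named SNORD113 numbered 24 on the antisense side, summing to 470 in the scapula muscle, 304 in longissimus thoracis, 174 in gluteus and 114 in intercostal muscle. Of the 24, 14 were higher and 1 lower, beside 27.5% and 14% of all antisense transcripts. Other structured RNAs gave 6 higher and 1 lower of 12, or 3 and 2. For these multicopy RNAs the reads may come from several loci.

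Intergenic transcripts carry no gene name, and their levels are given by the assembly's own identifier. Of 487 with at least 200 reads, 6 (1.23%) were higher than in each other muscle and 17 (3.49%) lower. The highest of the 6 by contrast, TCONS_00242159, stood at 106 FPKM in the scapula muscle, 3.25 in longissimus thoracis and 0.404 in intercostal muscle, and was not listed in gluteus. TCONS_00219572 stood at 470.5 against 97.7, 64.5 and 79.0. TCONS_00056740 stood at 181.6 against 37.5, 14.9 and 47.7, a ratio of 3.81 (3.08 to 4.74). In the last of these the intercostal muscle came next, as in the collagens. Among those lower, TCONS_00077914 stood at 45.2 against 559, 344.5 and 137, and TCONS_00171408 at 44.9 against 388, 465 and 109.9. In both the intercostal muscle was the nearest to the scapula muscle.

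The transcripts with the largest log2 difference in each class, restricted to 20 reads or more, were nearly all absent from at least 1 muscle, so no fold is given. Antisense to EIF4E2, a cap-binding protein, 1 transcript was listed in the scapula muscle alone, at 114 FPKM, as was 1 of the 39 of TIMP3, at 106. ANGPTL2, a secreted angiopoietin-like protein, stood at 86.6 in the scapula muscle and 25.1 in gluteus and was not listed elsewhere. RXFP2, a receptor of an insulin-like peptide, stood at 86.1 in the scapula muscle, against 18.2 in intercostal muscle. Of those missing from the scapula muscle, ADAM22, a cell adhesion protein, stood at 42.9 in longissimus thoracis, 58.6 in gluteus and 53.7 in intercostal muscle. In the same order SRP14, of the signal recognition particle, stood at 249, 73.4 and 68.5, and CXCL9, a chemokine, at 35.9, 33.0 and 5.54. ADAM22 was nearly level in the 3 muscles that listed it, and CXCL9 was weak in intercostal muscle. An intronic transcript of CHD1L, a chromatin remodeller, and one of MOB1B, a member of Hippo signalling, were listed in the scapula muscle alone, at 140.0 and 129.7. PTGIS, prostacyclin synthase, had an intronic transcript at 122 in the scapula muscle and 7.92 in gluteus. Missing introns included one of SPTBN1, a spectrin of the membrane skeleton, at 101, 65.1 and 37.6 in the other muscles, and one of ARHGAP26 at 70.0, 62.3 and 12.8.

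Of 1420 antisense transcripts listed in all 4 muscles, 175 (12.3%) were higher in the scapula muscle than the median of the others and 213 (15%) lower. Of these transcripts, 34 (2.39%) were higher in the scapula muscle than in each other one and 63 (4.44%) lower. CNOT6L, an enzyme that removes poly(A) tails, stood at 47.3 FPKM in the scapula muscle, 0.658 in longissimus thoracis, 1.27 in gluteus and 4.25 in intercostal muscle. NRP2, a receptor of semaphorins and VEGF, stood at 136 against 1.72, 46.5 and 11.15. Their ratios to the next muscle were 11.1 (4.09 to 42.4) and 2.93. On the low side, GEMIN6, of the complex that assembles spliceosomal particles, stood at 2.31 against 148, 88.4 and 63.6, and CCNL1, a cyclin linked to splicing, at 0.835 against 68.1, 39.9 and 16.3. In both the scapula muscle was near 0 and the intercostal muscle the next lowest.

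The intercostal muscle was the nearest to the scapula muscle by each measure used. Among transcripts listed in every muscle, Pearson's r was 0.63 with intercostal muscle, 0.56 with gluteus and 0.43 with longissimus thoracis, and for antisense ones 0.83, 0.76 and 0.59. These correlations run across transcripts of shared libraries and are descriptive. At 2-fold, 1537 of the 7188 were higher in the scapula muscle than in intercostal muscle (21.4%) and 1410 lower (19.6%). Against gluteus 1926 were higher (26.8%) and 1520 lower (21.1%), and against longissimus thoracis 1984 (27.6%) and 1837 (25.6%). Of 10698 transcripts that the scapula muscle shared with only 1 other muscle, 4678 were shared with intercostal muscle, 3523 with longissimus thoracis and 2497 with gluteus.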

How the data were processed

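One library was sequenced for each muscle from RNA of 3 animals pooled in equal amounts, per the labels' protocols. The values deposited by the authors are FPKM per transcript, with class and host gene in the identifier. TopHat2 2.0.9, Cufflinks 2.1.1 and the UMD3.1 build are named in the submitters' processing notes; strand use, filters and annotation: not given in the sources used here. Reads were recovered by dividing out the FPKM formula: all 115374 values came out whole to a relative error under 1e-11. Transcripts were joined on the full identifier, an unlisted one as 0, and compared as log2(FPKM + 1), with a 2-fold rule and at least 1 FPKM in 1 library. Scripts (Python 3.11.15, pandas 2.3.3, NumPy 2.4.6, SciPy 1.17.1) were tested on simulated data. Named transcripts were, with at least 20 reads in their highest library, the 8 highest and 8 lowest per class, the 5 highest and lowest antisense ones listed in every muscle, 10 host genes per direction, and up to 3 high and 2 low per gene list. Members and all 28 lists were chosen with earlier results of these data known; ribosomal S6 kinases were dropped from the ribosomal list after their values were seen. Those named outside the rule were chosen after values were seen: every transcript with at least 200 reads, host genes with the most transcripts or higher or lower than in each muscle, and single list members. Of 6589 gene names, 5613 matched a current RefSeq symbol (ARS-UCD2.0, names only), 396 a synonym and 580 none. Alternatives were pseudocount, read and listing filters, size factors, the mean in place of the median, and leaving out each muscle. No sequences or coordinates are printed, since none for this build were used here.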

Additional observations from a re-analysis of the deposited data

How the results depend on the processing

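With 1 pooled library a muscle, nothing here measures variation between animals, and few transcripts are deep enough to limit counting error. No paired analysis was possible because each muscle has 1 library and the labels carry no replicate numbers. The count higher than the median was 9001 with at least 20 reads and 100 with at least 200. The count lower was 4350 and 168 under those filters and 27762 against the mean log2 level in place of the median, which no longer sets transcripts of 2 unlisted muscles at 0. Higher than each muscle were 3693 and 13, and lower than each 37 with at least 200 reads and 670 with a pseudocount of 5 FPKM. Of transcripts listed in the scapula muscle alone, 6117 had at least 10 reads. Leaving out 1 other muscle in turn gave 21860 to 23404 higher, 18059 to 28469 lower, 19082 to 20980 higher than each and 2888 to 3449 lower than each; among transcripts listed in every muscle it gave 1129 to 1409 higher and 1442 to 1722 lower, so that the balance turned to lower in each case. Over all transcripts the lower counts grow by construction, since the median of 2 libraries is 0 less often. Transcripts listed in every muscle hold no 0. For them the rule itself changes, since the median of 2 levels is their mean, so their turn cannot be read as a trait of the muscles. Size factors shifted the median log2 difference by -0.01 and kept each of these counts within 1.5 times. The filter of 200 reads and the list counts without longissimus thoracis were chosen after seeing the data. Without longissimus thoracis the balance of small nucleolar RNAs went from 18 higher and 7 lower to 14 and 16, and that of the FGF list from 5 and 4 to 5 and 8.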

Other observations

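An antisense transcript named for DDX3Y, an RNA helicase gene of the Y chromosome, was listed in all 4 muscles although the animals are labelled female. It stood at 9.225 FPKM in the scapula muscle, 118 in longissimus thoracis, 50.9 in gluteus and 50.1 in intercostal muscle. DDX3Y has a close copy on the X chromosome, and the origin of its reads was not tested.

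Structured RNAs differed widely between the libraries. RNase_MRP, which cuts precursors of ribosomal RNA, stood at 31668 FPKM in the scapula muscle, 3598 in longissimus thoracis, 51353 in gluteus and 24652 in intercostal muscle. 5_8S_rRNA stood at 903.5 against 17.1, 1395 and 235. BNIP3, a protein of mitophagy, had an antisense transcript at 1176 in the scapula muscle, 245 in longissimus thoracis, 1884 in gluteus and 1846 in intercostal muscle. In all 3 the scapula muscle stood well above longissimus thoracis and below gluteus.

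The 2 of 117 intronic transcripts with at least 200 reads that were lower in the scapula muscle than in each other muscle both lay in ZBTB16, a transcription factor that answers to glucocorticoids. One stood at 21.3 FPKM in the scapula muscle, 115 in longissimus thoracis, 66.5 in gluteus and 68.4 in intercostal muscle. The other stood at 23.5 against 89.3, 115.5 and 57.35. By contrast KLF9, another factor that answers to glucocorticoids, had an antisense transcript at 374 in the scapula muscle against 36.0, 182 and 349, so that it was highest there. NR3C2 introns were level with longissimus thoracis, as given above.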
